A study of Rattus norvegicus with 21 samples.

Results

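Imipramine and tianeptine are antidepressants built on a tricyclic ring system, and here they were given to stressed rats in the same way. Their animals were taken by the drug named in the labels: 3 rats given imipramine and 3 given tianeptine, 6 of the 18 rats and 6 of the 21 arrays in the series. Affymetrix rat Gene ST arrays measured RNA of the dentate gyrus, the part of the hippocampus built of granule neurons. All rats were wild-type male Wistar animals of 2 months. Both drug groups were kept under unpredictable chronic mild stress for 6 weeks and received daily intraperitoneal injections of 10 mg/kg in 0.9% saline during the last 2 weeks, so dose, vehicle, route and time were matched. The 3 rats of the stress group went through the same 6 weeks without a drug, and the 3 control rats had neither stress nor drug. The labels do not say whether rats without a drug were injected, so in the comparisons with stress the drug and the daily injection cannot be told apart. The other groups, also 3 rats each, were stressed and given fluoxetine at 10 mg/kg or agomelatine at 40 mg/kg; they entered the fit for its estimate of the spread and appear in the plots.

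Imipramine is the parent tricyclic antidepressant. It carries a dibenzazepine ring with a basic dimethylaminopropyl side chain, inhibits the reuptake of serotonin and noradrenaline, and binds muscarinic, histamine and alpha adrenergic receptors. Tianeptine has a different tricyclic core, with a chlorine and a sulfonyl group in the ring system, and its side chain is an amino acid that ends in a carboxylic acid. It inhibits monoamine reuptake little and is an agonist of the mu opioid receptor. In the dentate gyrus, antidepressants are studied for their action on granule neuron activity, on growth factor and cAMP signalling and on the addition of adult-born neurons.

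The values are log2 expression values, so a difference of 1 is a doubling of the array signal. The annotated genes above a low-signal limit numbered 10804. Over them the array medians ran from 9.21 to 9.35, and the median SD among the 3 rats of a group was 0.0631 for imipramine, 0.0805 for tianeptine and 0.082 for stress. The tissue label was set beside granule neuron markers: of 12 listed, 8 were on the array and 7 above the limit. Of 11 listed markers of the neighbouring pyramidal fields, 9 were on the array and 8 above the limit. The limit was passed by 10804 of 14506 genes, so these counts cannot tell the dentate gyrus from neighbouring fields. Among the 7, Prox1, the transcription factor of granule neuron identity, had mean log2 values of 11.57 with imipramine and 11.58 with tianeptine. C1ql2, a synaptic protein of granule neurons, had means of 11.70 and 11.75. Nptx1, listed as a marker of the neighbouring pyramidal fields, was also bright, with means of 11.94 and 11.98. In stress rat 1 the mean of 6 choroid plexus markers was 0.79 above the average of all rats, an average that includes agomelatine rat 1 at 3.21. It was -0.24 and -0.12 in stress rats 2 and 3, and between -0.37 and -0.17 in the 6 rats of the drug pair. In stress rat 3 the mean of the pyramidal markers was 0.264 and that of the interneuron markers 0.213. In the drug pair these lay between -0.0977 and 0.0377 and between -0.149 and 0.0543. Whether carry-over of neighbouring tissue bears on the comparisons with stress was not tested beyond leaving out each rat. The labels call the arrays biological replicates; in this bulk tissue, fewer cells of a type and less RNA per cell cannot be told apart.

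The first question was whether the dentate gyrus differed between rats given the one drug and rats given the other, which is 1 pair of compounds. No gene passed the test between them: 0 of 10804 genes (0%) had a Benjamini-Hochberg adjusted p under 0.05 in the limma fit, and the smallest was 0.789. At an unadjusted p under 0.05 there were 664 genes (6.15%), 364 higher and 300 lower with imipramine. In 1680 genes (15.5%) the 3 rats of one drug did not overlap the 3 of the other. The median difference, imipramine minus tianeptine, was -0.0137, and 56% of genes lay below 0.

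A missed threshold does not show that the drugs act alike, so the intervals were read as well. The 95% interval of the difference lay within -0.5 to 0.5 on the log2 scale, a 1.41-fold change either way, for 10493 genes (97.1%), and reached that bound for 311. These intervals are per gene and not adjusted for their number. The median size of the difference was 0.0623, 95% of genes differed by less than 0.194, and 17 genes differed by more than 0.5. The largest difference was -1.03, for Itgam.

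**Figure D1:**
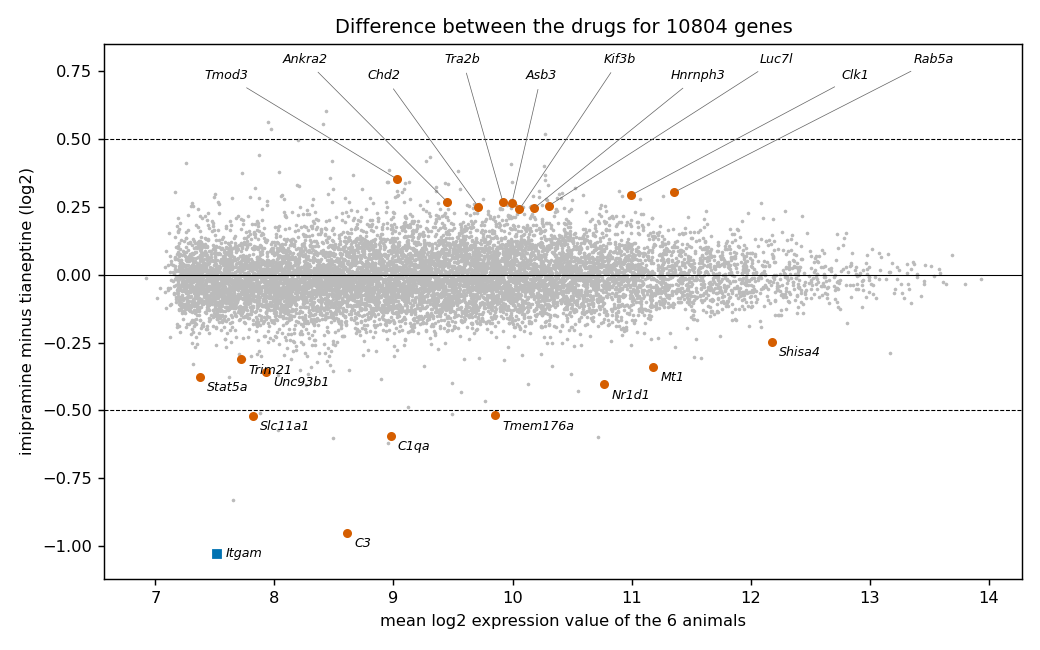
Difference between the drugs (imipramine minus tianeptine, log2) against the mean log2 expression value of the 6 rats, with 1 grey point for each of 10804 genes. Orange points are the 20 genes named by smallest p among those without overlap, the blue square is Itgam, and dashed lines mark -0.5 and 0.5; the few genes that lie far from 0 are mostly below it, with C3 at -0.95 and Itgam at -1.03.

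The 10 named genes lower with imipramine than with tianeptine included C3, C1qa, Slc11a1, Unc93b1 and Trim21, which have roles in complement or innate immunity; they were grouped after their values were seen, and no such list was tested. C3, the central protein of the complement cascade, had log2 values of 8.18, 8.19 and 8.04 with imipramine and 9.31, 8.80 and 9.14 with tianeptine, against 8.24, 8.43 and 8.70 under stress alone. All tianeptine rats were above all imipramine and stress rats, while the imipramine rats were below the lowest stress rat. The difference between the drugs was -0.95 ± 0.19 (SE, n = 3 each), 1.93-fold, with a 95% interval of -1.35 to -0.56 that lies wholly beyond the bound. Its adjusted p was 0.789 in the limma fit over all 18 rats and 0.0305 when only the 6 rats of the pair entered the fit, the one setting in which a gene passed between the drugs. Over the other alternatives it ran from 0.0685, without the agomelatine rats, to 0.999, without imipramine rat 2.

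C1qa, a chain of the complement protein C1q, was at 8.84, 8.53 and 8.67 with imipramine and at 9.33, 8.86 and 9.62 with tianeptine. The groups did not overlap, though tianeptine rat 2 lay only just above the highest imipramine rat. Slc11a1, a metal transporter of macrophage phagosomes, was at 7.58, 7.56 and 7.53 with imipramine and at 8.06, 7.81 and 8.36 with tianeptine. Imipramine rats were tightly grouped and tianeptine rats widely spread. The differences were -0.59 ± 0.16 for C1qa and -0.52 ± 0.12 for Slc11a1. Tmem176a, a membrane protein of myeloid cells, differed by -0.52 ± 0.13, and Unc93b1, which brings Toll-like receptors to endosomes, by -0.36 ± 0.09. Trim21, an intracellular antibody receptor, differed by -0.31 ± 0.08. In all 3 of these the tianeptine rats were above the imipramine rats, as the naming rule requires.

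Stat5a, a transcription factor of cytokine signalling, was closely grouped within each drug. Its values were 7.18, 7.19 and 7.19 with imipramine and 7.57, 7.50 and 7.61 with tianeptine, and stress rats stood between at 7.45, 7.41 and 7.41. All of these are close to the low-signal limit of 7.165, where array differences tend to be compressed. The difference between the drugs was -0.38 ± 0.08. The last of these genes, Shisa4, a membrane protein of the Shisa family, differed by -0.25 ± 0.07.

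**Figure D2:**
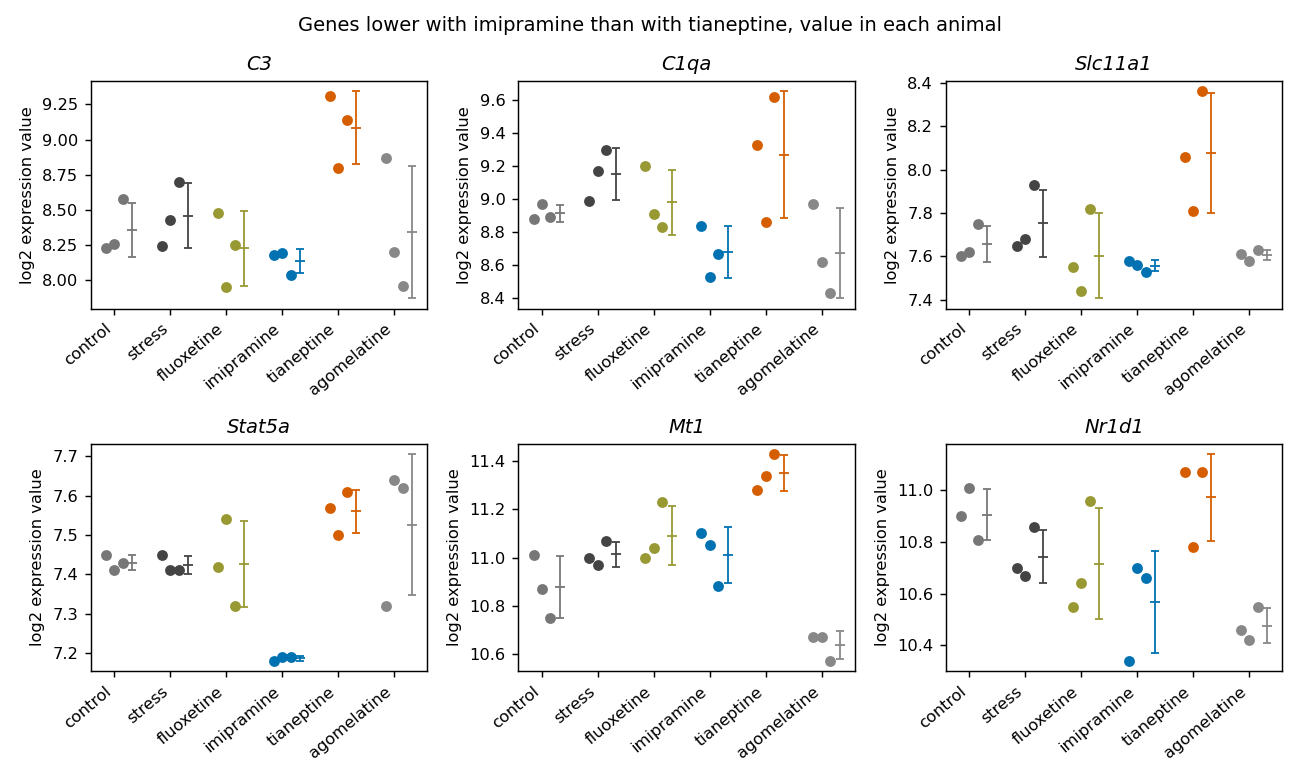
Log2 expression value of 6 genes in each of the 18 rats, by group; points are rats, and the bar beside them is the mean with the SD of 3 rats. In C3, C1qa, Slc11a1, Stat5a, Mt1 and Nr1d1 the tianeptine rats lie above the imipramine rats, and rats of the other groups mostly lie between or beside them.

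Microglia, the resident macrophages of the brain, express C1q and Itgam, so their whole marker list was set beside these genes. Of 14 markers, 11 were above the limit and none of those 11 was called. With imipramine 9 were lower and 2 higher than with tianeptine, 7 of them lower at an unadjusted p under 0.05, where 2.78% of all genes were. The median difference of the list was -0.29, against -0.0137 over all genes. Without tianeptine rat 3 the count was 3 in place of 7. The list was chosen with earlier results of these data known.

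Itgam, the alpha chain of complement receptor CR3, was at 7.24, 6.67 and 7.09 with imipramine and at 7.83, 7.22 and 9.04 with tianeptine. The imipramine values of 6.67 and 7.09 are under the low-signal limit of 7.165. Tianeptine rat 3 stood far above every other rat, and tianeptine rat 2 lay below imipramine rat 1, so the groups overlapped. Without tianeptine rat 3 the difference was -0.52 in place of -1.03. C1qb and C1qc, the other chains of C1q, differed by -0.49 ± 0.15 and -0.29 ± 0.09. Tyrobp, the signalling adaptor of microglial receptors, differed by -0.51 ± 0.20, Csf1r, the receptor on which microglial survival depends, by -0.34 ± 0.11, and Aif1, the cytoskeletal protein Iba1, by -0.26 ± 0.11. Tianeptine rat 3 also weighed on these: without it the difference was -0.285 for C1qb, -0.245 for Tyrobp and -0.197 for Csf1r. Without tianeptine rat 2, that of Tyrobp was -0.802.

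The other 4 markers had differences nearer to 0. The difference was -0.19 ± 0.13 for the fractalkine receptor Cx3cr1 (-0.105 without imipramine rat 3 and -0.106 without tianeptine rat 1), -0.07 ± 0.13 for the purine receptor P2ry12, 0.02 ± 0.11 for Tmem119 and 0.09 ± 0.16 for the lipid receptor Trem2. The sign of Tmem119 and of Trem2 turned when single rats were left out. The mean of the 11 markers, taken as the deviation from the average of all rats, was -0.03, -0.18 and -0.19 with imipramine and 0.25, -0.12 and 0.47 with tianeptine. It was 0.02, -0.06 and 0.12 under stress and 0.07, -0.01 and -0.10 in control. Tianeptine rats 1 and 3 were thus the highest of these 12, while tianeptine rat 2 lay among the imipramine rats. The list's median difference was -0.218 without tianeptine rat 3 and -0.42 without tianeptine rat 2. The part of the microglial level in the difference of C3 and Slc11a1 was not tested.

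Mt1 and Mt2A encode metallothioneins, small proteins that bind zinc and copper and respond to metals and glucocorticoids. Neither passed the adjusted threshold, and no list of the family was tested. Mt1 was at 11.10, 11.05 and 10.88 with imipramine and at 11.28, 11.34 and 11.43 with tianeptine, and stress rats were at 11.00, 10.97 and 11.07. All tianeptine rats lay above all imipramine and stress rats, and the imipramine and stress rats overlapped. The difference was -0.34 ± 0.08, and both Mt1 probe sets gave it, with -0.34 and -0.346. Mt2A differed by -0.29 ± 0.10, with values of 12.94, 13.06 and 13.06 against 13.28, 13.24 and 13.42. Probes of near-identical metallothionein genes can share signal, so the pair may not be independent.

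Since Mt1 and Mt2A were both higher in all tianeptine rats, the 250 bases before their RefSeq starts (assembly GRCr8) are shown. Matches on either strand to TGCNCNC, a looser form of the metal response element core TGCRCNC (R is A or G), are in capitals. The Mt1 window is chr19:10832976-10833225 and the Mt2A window chr19:10838709-10838958, both read on the minus strand.
Mt1: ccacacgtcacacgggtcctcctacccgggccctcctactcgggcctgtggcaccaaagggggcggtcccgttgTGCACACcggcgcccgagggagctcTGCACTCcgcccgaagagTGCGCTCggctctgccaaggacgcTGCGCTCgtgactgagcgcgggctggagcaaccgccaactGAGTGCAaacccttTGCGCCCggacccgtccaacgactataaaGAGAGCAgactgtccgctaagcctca
Mt2A: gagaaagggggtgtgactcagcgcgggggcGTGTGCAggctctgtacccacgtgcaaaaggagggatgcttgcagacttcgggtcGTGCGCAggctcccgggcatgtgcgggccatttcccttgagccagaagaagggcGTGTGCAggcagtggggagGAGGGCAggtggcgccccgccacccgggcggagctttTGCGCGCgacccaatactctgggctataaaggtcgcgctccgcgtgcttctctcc
The Mt1 window held 7 matches to this looser form and the Mt2A window 5. Of these, GAGAGCA in Mt1 and GAGGGCA in Mt2A do not match the stricter core, which was not counted. Of 33469 RefSeq promoters of the same length, 43.4% held at least 1 match and 0.37% held 5 or more. A match describes the letters and not a bound factor.

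Both genes belong to a list of 20 glucocorticoid-responsive genes, whose members lay on both sides. With imipramine 13 were higher and 7 lower, with a median of 0.0327, while over all genes 56% were lower and the median was -0.0137. At an unadjusted p under 0.05, 3 were lower, the metallothioneins and Arrdc2 (-0.18), and 1 was higher, Errfi1 (0.17). Over all genes 2.78% were lower and 3.37% higher at that p. Fkbp5, a chaperone of the glucocorticoid receptor that the hormone induces, differed by 0.21 with an interval of -0.04 to 0.46, and the receptor itself, Nr3c1, by 0.03 with an interval of -0.10 to 0.17.

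Nr1d1, the clock repressor REV-ERB alpha, was at 10.34, 10.70 and 10.66 with imipramine and at 11.07, 10.78 and 11.07 with tianeptine. The stress rats, at 10.70, 10.67 and 10.86, overlapped both. The difference was -0.40 ± 0.11. Dbp, a clock output transcription factor, was at 11.39, 11.48 and 11.41 with imipramine and at 11.80, 11.57 and 11.83 with tianeptine, a difference of -0.31 ± 0.09 without overlap. Of 14 clock genes above the limit, 10 were lower and 4 higher with imipramine, beside 56% of all genes lower, and the median was -0.0232. Nr1d1 and Dbp were the 2 members with an unadjusted p under 0.05, where 2.78% of all genes were lower. Nr1d2, the paralogue of Nr1d1, differed by -0.12 ± 0.07, and Clock by 0.11 ± 0.06. The labels do not say at what time of day tissue was taken, and the part of this was not tested.

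Genes higher with imipramine showed smaller differences, and several act in RNA splicing. Luc7l, a U1 snRNP component, was at 10.38, 10.44 and 10.49 with imipramine and at 10.11, 10.21 and 10.22 with tianeptine. The stress rats, at 10.40, 10.34 and 10.36, lay beside the imipramine rats. The difference was 0.25 ± 0.06. Clk1, the kinase of SR splicing proteins, differed by 0.29 ± 0.08, Tra2b, a splicing activator, by 0.27 ± 0.07, and Hnrnph3, an RNA-binding protein, by 0.24 ± 0.06. The second probe set of Tra2b gave 0.186. These splicing genes were grouped after their values were seen, and no splicing list was tested.

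Rab5a, the GTPase of early endosomes, was at 11.44, 11.62 and 11.46 with imipramine and at 11.02, 11.27 and 11.32 with tianeptine, a difference of 0.30 ± 0.08. Tmod3, which caps actin filaments, was at 9.31, 9.25 and 9.07 against 8.88, 8.91 and 8.78, a difference of 0.35 ± 0.09. In both genes the drug groups did not overlap. In Tmod3 the stress rats, at 9.24, 9.27 and 9.21, again stood with the imipramine rats. Asb3 and Ankra2, both with ankyrin repeats, differed by 0.26 ± 0.07 and 0.27 ± 0.07, the kinesin motor Kif3b by 0.24 ± 0.06 and the chromatin remodeller Chd2 by 0.25 ± 0.07.

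Stress-response genes of protein folding were read as a list. Among 25 genes of the heat shock and unfolded protein responses, 19 were higher and 6 lower than with tianeptine; 6 were higher at an unadjusted p under 0.05, where 3.37% of all genes were. None passed the adjusted threshold. The median was 0.0807, and it lay between 0.0535 and 0.105 when single rats were left out. The count of 6 was less stable: it was 0 without tianeptine rat 1, 2 without imipramine rat 1 and 2 without imipramine rat 2. Hspa5, the chaperone BiP, was at 12.60, 12.51 and 12.52 with imipramine and at 12.28, 12.49 and 12.21 with tianeptine, while stress rats were at 12.59, 12.60 and 12.64. The tianeptine rats were the lower ones, with rat 2 close to the imipramine rats. The differences were 0.22 ± 0.09 for Hspa5, 0.27 ± 0.10 for its co-chaperone Dnajc3, 0.22 ± 0.09 for the co-chaperone Dnajb11 and 0.22 ± 0.09 for the disulfide isomerase Pdia4. Calr and Xbp1 completed the 6. Against stress alone, 8 of the 25 genes were lower with tianeptine at an unadjusted p under 0.05, beside 3.11% of all genes, and 1 of the 25 with imipramine, beside 6.7% of all genes. The list medians were -0.114 and -0.0243. These comparisons share the stress rats with each other and the drug rats with the direct comparison.

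For Hspa5 and Dnajc3 the 250 bases before the RefSeq start (assembly GRCr8, plus strand) are shown because both hold the full endoplasmic reticulum stress response element, CCAAT and CCACG with 9 bases between, in capitals. The windows are chr3:38452766-38453015 for Hspa5 and chr15:102432417-102432666 for Dnajc3.
Hspa5: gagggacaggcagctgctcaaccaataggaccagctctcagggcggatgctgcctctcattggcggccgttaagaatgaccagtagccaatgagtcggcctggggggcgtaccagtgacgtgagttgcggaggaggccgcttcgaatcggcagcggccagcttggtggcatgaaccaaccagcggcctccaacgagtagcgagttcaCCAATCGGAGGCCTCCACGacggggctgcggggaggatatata
Dnajc3: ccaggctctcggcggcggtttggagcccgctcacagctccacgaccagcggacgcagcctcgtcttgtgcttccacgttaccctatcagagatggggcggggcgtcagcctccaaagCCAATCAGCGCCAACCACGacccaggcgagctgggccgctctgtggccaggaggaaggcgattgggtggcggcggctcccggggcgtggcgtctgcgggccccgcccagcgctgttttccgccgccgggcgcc
The element was found on either strand in 22 of 33469 promoters (0.0657%), and the windows of Pdia4 and Dnajb11 did not hold these letters. The windows of Calr and Xbp1 were not looked up, and how many genes of the list hold the element was not counted. Since the windows shown were picked for holding it, the share over all promoters is no test of them.

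The interneuron list held genes with lower values under imipramine. Npy, a neuropeptide of hilar interneurons, was at 10.30, 10.35 and 10.28 with imipramine, at 10.54, 10.66 and 10.82 with tianeptine and at 10.45, 10.60 and 10.87 under stress. The imipramine rats lay below all others of these groups, and tianeptine and stress rats overlapped. The difference between the drugs was -0.36 ± 0.12. Sst, somatostatin, and Slc32a1, the vesicular GABA transporter, differed by -0.30 ± 0.13 and -0.30 ± 0.10. Of 12 interneuron genes above the limit, 10 were lower with imipramine, 3 of them at an unadjusted p under 0.05, and none passed the adjusted threshold. Over all genes these shares were 56% and 2.78%. The list median was -0.118, and -0.0543 without imipramine rat 1.

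In the large housekeeping families most genes were slightly lower with imipramine, but the rats of the drugs overlapped. The mean deviation of the ribosomal genes was -0.0229, -0.107 and -0.0849 with imipramine and -0.0167, -0.0792 and 0.0947 with tianeptine. That of the oxidative phosphorylation genes was -0.0365, -0.0822 and -0.0739 with imipramine and -0.0024, -0.0743 and 0.0647 with tianeptine. Of 70 cytosolic ribosomal protein genes, 62 were lower with imipramine and the median was -0.0687; 3 had an unadjusted p under 0.05. These were Rpl13 (-0.43 ± 0.12), Rplp0 (-0.21 ± 0.10) and Rpl39 (-0.13 ± 0.06). Without tianeptine rat 3 the median was -0.0262. Of 71 oxidative phosphorylation genes 54 were lower, with a median of -0.0533 and -0.0223 without tianeptine rat 3. The 3 with an unadjusted p under 0.05 were the ATP synthase subunits Atp5mc2 (-0.22 ± 0.08) and Atp5mc1 (-0.20 ± 0.08) and the complex I subunit Ndufb10 (-0.17 ± 0.07). Over all genes, 56% were lower with imipramine, 2.78% at an unadjusted p under 0.05, and the median was -0.0137. Without tianeptine rat 3, 1 gene of each family had an unadjusted p under 0.05, and Rplp0 differed by -0.121; without imipramine rat 3, Ndufb10 differed by -0.0945.

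**Figure D3:**
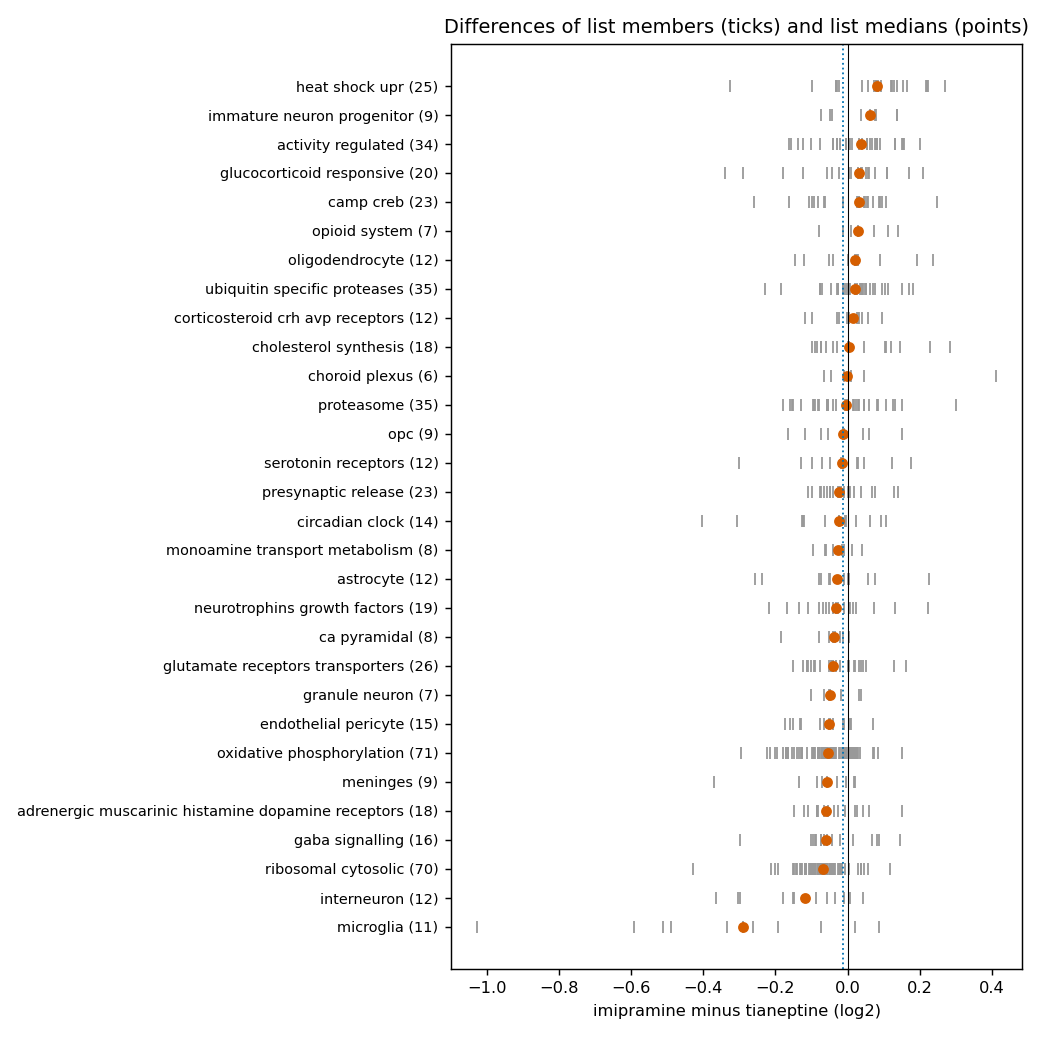
Difference between the drugs (imipramine minus tianeptine, log2) for gene lists with at least 5 members above the low-signal limit; ticks are genes, orange points the list medians, and the number of genes stands in brackets. The dotted line is the median of all genes, -0.0137; the microglia list has the lowest median, -0.29, and the heat shock list the highest, 0.0807.

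The molecules on which the drugs are known to act gave no called difference. Of the 8 monoamine transport and metabolism genes above the limit, 2 were higher and 6 lower, none at an unadjusted p under 0.05, and all 8 intervals lay within the bound. The noradrenaline transporter Slc6a2, a target of imipramine, differed by -0.06 with an interval of -0.29 to 0.17. Its values are near the limit, and the cell bodies of noradrenergic neurons lie outside the hippocampus. The serotonin transporter gene Slc6a4 was below the limit and was not tested. Of 18 adrenergic, muscarinic, histamine and dopamine receptor genes none had an unadjusted p under 0.05 and 1 reached the bound. Chrm1, the main muscarinic receptor of the forebrain, differed by -0.08 with an interval of -0.21 to 0.04, and the histamine receptor Hrh1 by -0.06 with an interval of -0.20 to 0.08.

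The mu opioid receptor Oprm1, the receptor tianeptine activates, was at 8.36, 8.43 and 8.41 with imipramine and at 8.27, 8.38 and 8.32 with tianeptine. The groups overlapped, and the difference was 0.07 with an interval of -0.08 to 0.23. None of 7 opioid system genes had an unadjusted p under 0.05 or reached the bound. Of 12 serotonin receptor genes, Htr5b was lower with imipramine at an unadjusted p under 0.05 (-0.30 ± 0.14), and 5 reached the bound. Over all genes, 2.78% were lower at that p, and 311 of 10804 reached the bound. Htr1a, an inhibitory serotonin receptor, differed by 0.03 with an interval of -0.17 to 0.23. For Htr2c the interval was -1.55 to 1.53. The fit uses 1 spread per gene for all groups, and stress rat 3 stood at 9.90 and agomelatine rat 1 at 11.86 while the 6 rats of the pair lay between 7.09 and 7.61.

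Growth factor and signalling genes gave no called difference either. Bdnf, the neurotrophin most studied in antidepressant action, was at 8.89, 9.20 and 8.94 with imipramine and at 8.88, 9.05 and 8.70 with tianeptine. The rats overlapped, and the difference was 0.13 with an interval of -0.11 to 0.38. Its receptor Ntrk2 differed by -0.03 with an interval of -0.15 to 0.08. Creb1, the transcription factor of cAMP signalling, was at 9.16, 9.04 and 9.01 against 8.75, 8.87 and 8.84 without overlap, and the difference was 0.25 ± 0.08. It was the only 1 of 23 cAMP and CREB genes with an unadjusted p under 0.05, a share near the 6.15% over all genes. Of 9 immature neuron and progenitor genes 6 were higher with imipramine and none had an unadjusted p under 0.05; Sox11, a factor of newborn neurons, differed by 0.14 with an interval of -0.08 to 0.35.

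Other signalling lists held single members of that kind. Grm3, a metabotropic glutamate receptor, was higher with imipramine by 0.16 ± 0.06, the only 1 of 26 glutamate genes. Rims1, an active zone protein, was higher by 0.14 ± 0.05, the only 1 of 23 presynaptic genes. Nsdhl, an enzyme of cholesterol synthesis, was higher by 0.23 ± 0.08 (0.146 without tianeptine rat 1), with 2 of 18 genes of its list at an unadjusted p under 0.05. Of 35 ubiquitin-specific proteases 4 had one, Usp45 and Usp15 being higher and Usp2 and Usp20 lower, and none of 35 proteasome genes did. Over all genes the share was 6.15%.

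**Figure D4:**
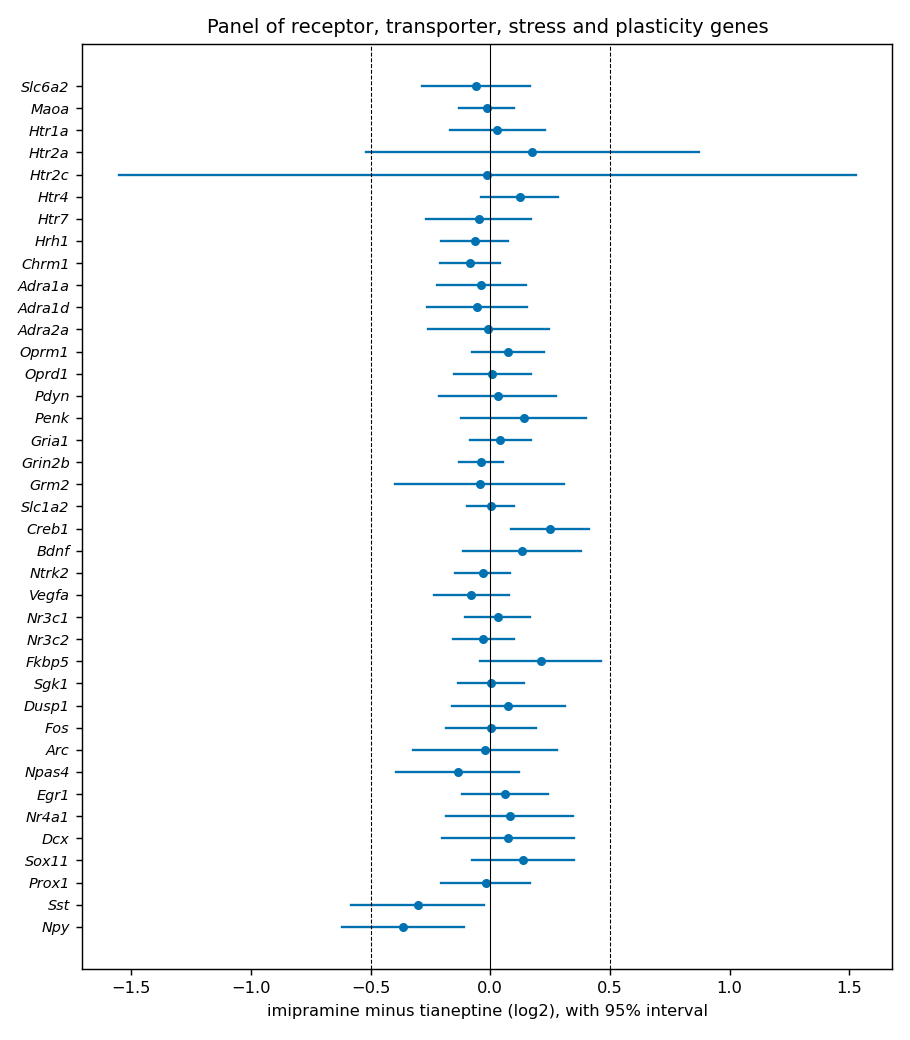
Difference between the drugs (imipramine minus tianeptine, log2) with its 95% interval for 39 receptor, transporter, stress, activity and plasticity genes. Intervals are from the limma fit and dashed lines mark -0.5 and 0.5; 4 of the 39 intervals reach a bound, that of Htr2c being the widest.

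The second question was how the dentate gyrus under each drug stood to stress alone. The comparisons share the 3 stress rats, so a value peculiar to those rats enters both. Overlap between their lists of genes under a p threshold was not counted. With imipramine 0 of 10804 genes (0%) passed, the smallest adjusted p being 0.33, and 1081 (10%) had an unadjusted p under 0.05; in 19.7% the groups did not overlap. With tianeptine 0 genes (0%) passed, the smallest adjusted p being 0.0891, and 547 (5.06%) had an unadjusted p under 0.05; in 11.2% the groups did not overlap. The mean of both drugs against stress gave 1 gene of 10804 (0.00926%), Dusp1, and 838 (7.76%) had an unadjusted p under 0.05. In 429 genes (3.97%) all 6 drug rats lay on one side of all stress rats, a count that values peculiar to the shared stress rats also enter.

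Dusp1, the phosphatase that switches off MAP kinases and is induced by neuronal activity and by glucocorticoids, was lower with both drugs than under stress. It was at 9.86, 9.66 and 9.84 under stress, at 9.09, 9.11 and 9.32 with imipramine and at 9.12, 9.01 and 9.16 with tianeptine. All 6 drug rats lay below all stress rats, and the drug groups overlapped each other. The control mean was 9.29 ± 0.06 (SD, n = 3). Fluoxetine rats, at 9.05, 9.13 and 9.47, also lay below all stress rats, while agomelatine rats, at 9.49, 9.73 and 9.27, overlapped them. Against stress, the difference was -0.61 ± 0.11 with imipramine, -0.69 ± 0.11 with tianeptine and -0.65 ± 0.10 for their mean (limma, adjusted p = 0.0289). Between the drugs it was 0.08 with an interval of -0.16 to 0.31. The call rests on few rats: the adjusted p was 0.0272 without imipramine rat 3 and between 0.0622 and 0.23 without any one of the other 8 rats, with a difference of -0.715 to -0.612 throughout. It was also lost with the replicate number as a block (0.0712) and with arrays set to equal medians (0.0518). The other alternatives gave 0.00538 to 0.0466.

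The 250 bases before the RefSeq start of Dusp1 (assembly GRCr8, chr10:17184603-17184852, plus strand) are shown as those of the one called gene, with TGACG, the core of the cAMP response element, in capitals on either strand.
Dusp1: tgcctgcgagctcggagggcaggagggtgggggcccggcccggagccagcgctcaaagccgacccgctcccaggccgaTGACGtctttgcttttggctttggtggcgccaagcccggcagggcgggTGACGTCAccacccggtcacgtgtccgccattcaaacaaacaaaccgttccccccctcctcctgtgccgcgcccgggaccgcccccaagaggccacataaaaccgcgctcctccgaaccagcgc
It held 3 matches, a pair of which overlap as the full element TGACGTCA. At least 1 match was present in 18.2% of promoters and 3 or more in 0.813%, and the full element in 1.59%.

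Dusp1 belongs to a list of 34 activity-regulated genes above the limit. Against stress, 7 of them were lower and 2 higher with imipramine at an unadjusted p under 0.05, and 7 lower and 0 higher with tianeptine, where 6.7% and 3.11% of all genes were lower and 3.3% and 1.95% higher. At any p, 21 of the 34 were lower and 13 higher with imipramine, and 20 lower and 14 higher with tianeptine. Over all genes 59.6% and 57.6% were lower. The list medians were -0.0503 and -0.0327, beside -0.023 and -0.0163 over all genes, and the highest member differences were 0.303 and 0.148. Npas4, a transcription factor induced by calcium entry, was at 8.71, 8.32 and 8.44 under stress, at 7.82, 7.91 and 8.09 with imipramine and at 7.88, 8.15 and 8.20 with tianeptine. All drug rats lay below all stress rats. The differences from stress were -0.55 ± 0.12 and -0.41 ± 0.12. Further examples were taken from the lower members only, and the 2 higher with imipramine are not named here. The synaptic gene Arc differed by -0.33 and -0.31, the nuclear receptor Nr4a1 by -0.35 and -0.44, and the ERK phosphatase Dusp6 by -0.27 and -0.40. Between the drugs, none of the 34 had an unadjusted p under 0.05, and the median was 0.0363.

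Other genes named for the mean of both drugs against stress did not pass the adjusted threshold. Fancd2osl1 was at 8.58, 8.94 and 9.13 under stress, at 9.65, 9.24 and 9.49 with imipramine and at 9.50, 9.53 and 9.36 with tianeptine. The stress rats lay below all rats of the drug pair, and the control mean of 9.35 ± 0.09 lay among the latter. The fluoxetine and agomelatine means were 9.55 and 9.54. The difference from stress was 0.58 ± 0.13 with each drug. Rab40c, of a ubiquitin ligase complex, was at 9.29, 9.43 and 9.41 under stress and between 8.99 and 9.18 in the 6 drug rats, with differences of -0.31 ± 0.07 and -0.30 ± 0.07. Rpf2, a factor of ribosome assembly, was higher than under stress by 0.32 ± 0.07 and 0.27 ± 0.07.

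Some named genes had a larger difference from stress with one drug. The nuclear receptor coactivator Ncoa5 differed by -0.19 ± 0.07 with imipramine and -0.36 ± 0.07 with tianeptine, and the transcription factor Sp1 by 0.23 ± 0.10 and 0.44 ± 0.10. The deubiquitinase Usp15 differed by 0.31 ± 0.07 with imipramine and 0.14 ± 0.07 with tianeptine. The channel subunit Lrrc8e, whose stress mean of 6.86 lies below the low-signal limit of 7.165, differed by 0.38 ± 0.13 and 0.52 ± 0.13. The peroxisomal protein Pex10 differed by -0.24 ± 0.07 and -0.31 ± 0.07. None of these 5 passed the direct test between the drugs.

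Against stress, imipramine alone named 5 further genes by smallest p. Pmm1, a phosphomannomutase, differed by -0.41 ± 0.08, the mitochondrial ribosomal genes mrpl24 and Gadd45gip1 by -0.28 ± 0.06 and -0.27 ± 0.06, the membrane-associated protein Cyria by 0.25 ± 0.06 and the kinetochore protein Spc25 by 0.43 ± 0.10. With tianeptine the same differences were -0.24 ± 0.08, -0.15 ± 0.06, -0.13 ± 0.06, 0.11 ± 0.06 and 0.18 ± 0.10. The stress mean of Spc25, 7.01, lies below the low-signal limit of 7.165. Tianeptine alone named Tmod3 and Hnrnph3, also named between the drugs, the keratins Krt73 (0.40 ± 0.10) and Krt31 (0.35 ± 0.09), both at values near the limit, and Mt1, which differed from stress by 0.34 ± 0.08 with tianeptine and by 0.00 ± 0.08 with imipramine. C3 differed from stress by 0.63 ± 0.19 with tianeptine and by -0.32 ± 0.19 with imipramine.

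**Figure D5:**
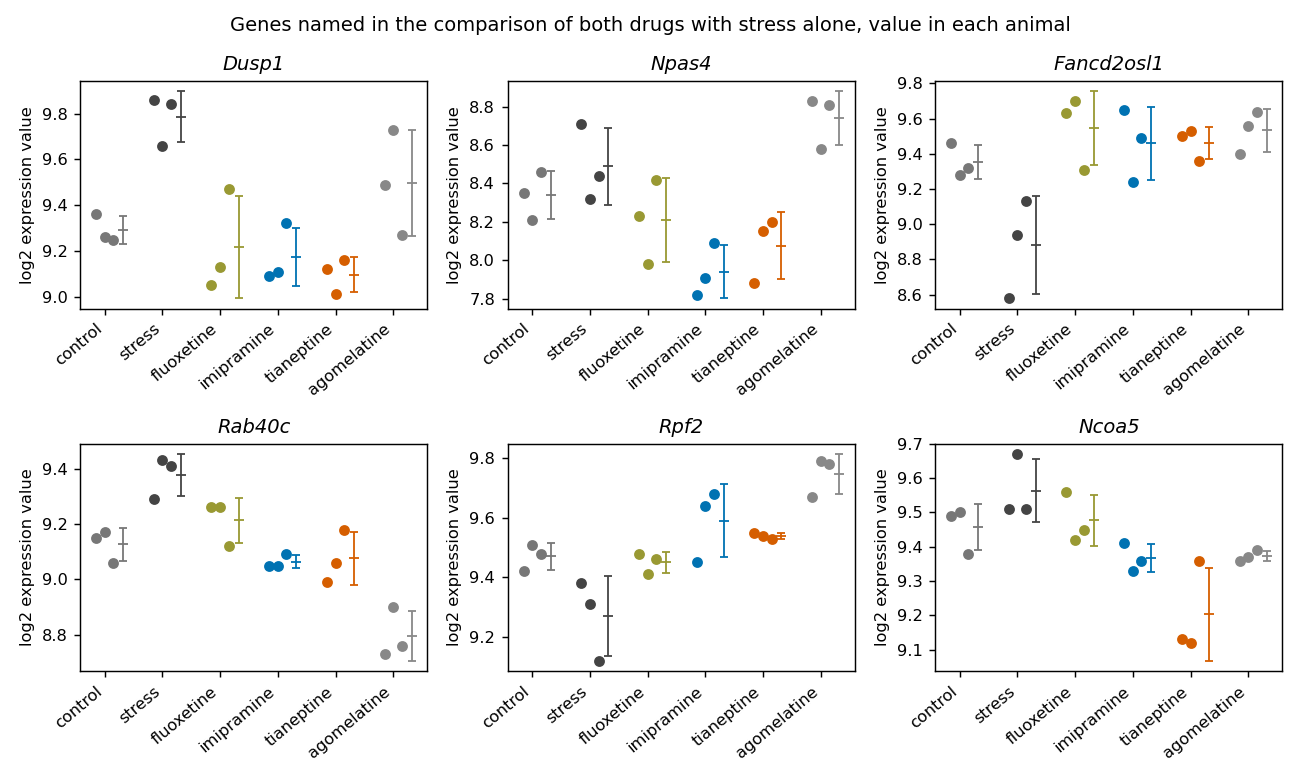
Log2 expression value of 6 genes in each of the 18 rats, by group; points are rats, and the bar beside them is the mean with the SD of 3 rats. In Dusp1 and Npas4 all imipramine and tianeptine rats lie below the stress rats, and in Fancd2osl1 and Rpf2 above them; only Dusp1 passed the adjusted threshold.

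Rats of one drug were also compared with each other by the correlation of their deviations from the average of the rats, across the 10804 genes; genes are not independent replicates, and this is a description. The imipramine rats correlated with each other at 0.161 to 0.377, and the tianeptine rats at -0.078 to 0.183. Tianeptine rat 2 correlated with the imipramine rats at 0.216 to 0.315, above its values of 0.183 and -0.078 with the other tianeptine rats. Tianeptine rat 3 correlated with stress rats 3 and 2 at 0.264 and 0.171, above its values of 0.0562 and -0.078 with its own group. Rat 2 was the tianeptine rat with the lowest C3, C1qa, Slc11a1 and Itgam, and rat 3 the one with the highest C1qa, Slc11a1 and Itgam. When rat 2 was left out, 993 genes had an unadjusted p under 0.05 between the drugs in place of 664, and without tianeptine rat 1 there were 329; none passed the adjusted threshold in either case.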

How the data were processed

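The deposited log2 expression values come from RMA, which the authors ran in Affymetrix Expression Console 1.2 according to the submitters' processing notes; per the labels' protocols, RNA was column-purified with DNase and labelled with biotin. Of 29214 probe sets, 15310 had 1 gene symbol in the platform annotation, 323 several and 13581 none; 15279 matched RefSeq. The brightest probe set stood for each of 14506 genes, and those with a mean at or above the 25th percentile (7.165) were tested. Repeat arrays of the 3 control rats were averaged. Group means over 18 rats were fitted by limma 3.58.1 (R 4.3.3) with a variance trend and 12 residual degrees of freedom, with Benjamini-Hochberg adjustment over 10804 genes. Arrays give no read depth; the number of rats limits precision. Named genes were the non-overlapping genes of smallest p (10 per direction between the drugs, 5 elsewhere), a panel of 41 genes, and up to 4 genes of smallest p in each of 32 lists; of these the text gives those that bear on its comparisons. Genes and lists were chosen with earlier results of these data known. The fit was tested on simulated data. Promoter windows are from RefSeq, GRCr8. Alternatives covered filters, scaling, variance models and left-out rats.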

Additional observations from a re-analysis of the deposited data

How the results depend on the processing

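Between the drugs, no gene was called under any planned setting except the fit of the 6 rats alone, which called 1 (C3). The share of genes whose interval lay within 0.5 ran from 94.5% to 98.7% over the settings, except every probe set, for which it was not computed. For both drugs against stress, 1 gene became 3 with array weights, 0 with equal array medians, 0 with the replicate block (replicate number as a block) and 35 with every probe set; leaving out single rats gave 0 to 1. For imipramine against stress, array weights called 26 and every probe set 5, in place of 0. For tianeptine against stress, 1 was called at an adjusted p under 0.1, 1 with array weights, 26 with every probe set, 1 in the fit of the groups compared and 1 without the agomelatine group. The cause was not tested. Same-numbered imipramine and tianeptine rats correlated at 0.0824, 0.0874 and 0.0089 in their deviations from the group means. Differently numbered ones correlated at -0.108 to 0.0243. Whether the replicate numbers pair the rats cannot be read from these values. The block changed no other call. Values near 0 turned sign between the drugs: Fancd2osl1 was 0.00464 with array weights and ran from -0.099 to 0.106 with single rats left out, and Htr2c was 0.0057 after a second quantile normalization and ran from -0.146 to 0.115. The ranges were -0.0157 to 0.0593 for Htr1a, -0.159 to 0.0518 for Slc6a2, -0.0523 to 0.129 for Tmem119 and -0.0698 to 0.197 for Trem2. For 99 pairs of a gene and a comparison, 1752 of 1791 values under alternatives kept direction and side of the threshold. Of 240 list medians 224 moved by less than the spread among rats.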

Other observations

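Probe sets without a gene name were left out of the comparisons above. When every probe set entered the fit, 35 differed between both drugs and stress at an adjusted p under 0.05 (limma), and 34 of these were unnamed here, 27 higher and 7 lower with the drugs. In 12 of the 34 the values were identical to those of a different probe set, so they hold 24 different patterns. Of the 27 higher ones, 21 carry neighbouring identifiers, so the 24 patterns may still overstate how many separate features differed. Probe set 10722465 was at 11.91, 11.74 and 12.44 under stress, at 12.90, 12.77 and 12.92 with imipramine and at 13.00, 13.10 and 13.24 with tianeptine, with an adjusted p of 0.000741 for the mean of both drugs. All drug rats lay above all stress rats, and the control mean was 12.48 ± 0.13 (SD, n = 3). Probe set 10930569 was at 10.31, 10.30 and 11.64 under stress and between 11.81 and 12.17 in the drug rats. Among the lower ones, probe set 10701332 was at 10.01, 9.83 and 9.32 under stress, at 8.91, 8.91 and 8.69 with imipramine and at 9.16, 9.18 and 9.28 with tianeptine. Between the drugs 0 probe sets passed in this fit.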
